A study of Mus musculus with 2 samples.

Results

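The translation initiation factors of sorted CD4+ T cells are described here across a pair of sorted populations. The genes were taken by symbol, as the protein-coding rows whose names begin with Eif1 to Eif6. The eIF2 kinases, the eIF4E-binding proteins, both genes of the third eIF2 subunit (Eif2s3x and Eif2s3y) and pseudogenes were left out. This gave 46 genes of the 41592 in the deposited table, and 45 of them had a mean of at least 1 FPKM (fragments per kilobase of transcript, scaled to the reads counted in a library). Eif4e1b was the member below that level, with 0.0554 FPKM in Thy1.1-negative cells, worth 1 read, and a listed 0 in Thy1.1-positive cells.

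The RNA came from YFP-positive CD4+ cells of lymph nodes and spleen, sorted as Thy1.1-negative or Thy1.1-positive at a purity given as typically above 97%, with 1 library for each population. The C57BL/6 mice, aged 6 to 8 weeks, had the genotype Foxp3 dCNS1-Cre-R26-YFP, in which Cre is expressed from Foxp3 sequences without the CNS1 element and switches on YFP at the Rosa26 locus in a cell and its progeny. Both populations share these alleles, and nothing in the labels says how many mice were pooled. The series compares thymus-derived regulatory T (Treg) cells with precursors of cells that lose Foxp3, but its design text gives the same markers to both, so the populations are named by their markers. With 1 library each there is no replicate error and no test. A gene was counted as higher or lower by the size of its difference on the log2(FPKM + 1) scale, always Thy1.1-negative minus Thy1.1-positive, and the 95% intervals of FPKM ratios cover counting error only.

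Initiation is the step at which the small ribosomal subunit is brought to an mRNA and placed at its start codon. The complex eIF2 delivers the initiator tRNA, eIF2B recharges eIF2 with GTP, and eIF1 and eIF1A keep the scanning subunit open. The large complex eIF3 is a scaffold on the small subunit, while eIF4F (the cap-binding protein eIF4E, the helicase eIF4A and the scaffold eIF4G) recruits it to the capped end of the mRNA. The factors eIF5 and eIF5B act in start codon selection and subunit joining. T cells that are activated raise protein synthesis, in part through the kinase complex mTORC1, which frees eIF4E from its inhibitors.

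In 3 of the 5 measured genes of eIF4F a short element stands upstream of a start site. It is shown because Myc, its best known binder, differed between the populations. The letters CACGTG, which read the same on both strands and are the binding motif of Myc, are in the RefSeq promoter windows (250 bases before to 50 after a start, build GRCm38.p6) of Eif4e, Eif4a1 and Eif4g1. The windows of Eif4a2 and Eif4g3, the other measured genes of eIF4F, lack CACGTG. That of Eif4g1 holds 1 more match, not shown, from base 16 of the transcript. CACGTG was also found in the window of Eif3f, a subunit of eIF3, where 1 more feature, an opening run of pyrimidines, is shown. The stretches below run 5′ to 3′ on the gene's strand, with CACGTG in capitals. The last line is the start of the Eif3f transcript, with its opening run of C and T in capitals.
Eif4e, chr3:138527028-138527057, plus strand: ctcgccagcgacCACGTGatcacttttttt
Eif4e, chr3:138527192-138527221, plus strand: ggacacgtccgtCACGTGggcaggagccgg
Eif4a1, chr11:69672584-69672643, minus strand: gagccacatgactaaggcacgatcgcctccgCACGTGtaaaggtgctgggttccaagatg
Eif4g1, chr16:20672647-20672706, plus strand: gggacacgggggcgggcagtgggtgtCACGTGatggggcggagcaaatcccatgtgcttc
Eif3f, chr7:108934325-108934384, plus strand: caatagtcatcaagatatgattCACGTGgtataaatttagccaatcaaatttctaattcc
Eif3f start, chr7:108934415-108934435, plus strand: CTCTCTTTCTCggcaagatgg

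The Eif4e stretches lie before the second of its annotated starts and overlap an exon of another Eif4e transcript model. The Eif4g1 stretch lies in the gene but outside its annotated exons. The Eif4a1 stretch and the upstream Eif3f stretch overlap no gene in the GENCODE M21 annotation. Windows were found for 36 of the 46 genes, and CACGTG was in those of 10, which is 27.8%. It was in the windows of 8.09% of all 27025 genes with one and of 12.1% of the 8525 protein-coding genes with a mean of at least 1 FPKM. CCGGAAG, the core of the motif of ETS factors, searched on both strands and unable to share letters with CACGTG, was in the windows of 14 of the 36 genes (38.9%), against 9.93% of all genes and 22.3% of those expressed protein-coding genes. An opening C followed by 4 pyrimidines, the shape of the terminal oligopyrimidine tract of ribosomal protein mRNAs, was met at a RefSeq start of 1 of the 36, Eif3f, and of 3.01% of all genes. The rule needs the annotated first base to be exact. The 10 members without a window, Eif3e and Eif3h among them, could not be searched, so other members with such a start may be missed.

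Initiation factor transcripts differed little between Thy1.1-negative and Thy1.1-positive cells. None of the 45 genes was 2-fold higher or lower in Thy1.1-negative cells. Of the 12820 genes with a mean of at least 1 FPKM, 1.93% were 2-fold higher and 1.15% were 2-fold lower. At such low shares 45 genes would hold few or none, so this count does not set the members apart. Over the 10657 protein-coding genes among the 12820, the shares were 1.78% and 0.544%. No member differed by as much as 1.5-fold either, a size that 5.81% of all genes passed upwards and 3.85% downwards (5.25% and 2.17% of protein-coding genes). At 1.2-fold, 3 members were higher and none was lower, against 19.9% and 13.9% of all genes, 19.5% and 10.6% of protein-coding genes, and 17.4% and 9.04% of the 7127 genes with a mean of at least 10 FPKM. The 3 were Eif3i, Eif3h and Eif4enif1.

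The median difference over the 45 genes was 0.06, and over all 12820 genes it was 0.03. Members lay above 0 in 26 cases and below 0 in 19, that is 57.8% above, next to 56.8% of all expressed protein-coding genes. Their differences ran between -0.17 (Eif3b) and 0.30 (Eif3i), and 39 of 45 fell between the lower and upper quartile of all genes, at -0.14 and 0.21. Against genes of their own level range, 36 of 45 did. The members together made up 1.11% of all FPKM in Thy1.1-negative cells and 1.13% in Thy1.1-positive cells. These are levels in bulk RNA, in which fewer cells of a type and less RNA per cell cannot be told apart.

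**Figure D1:**
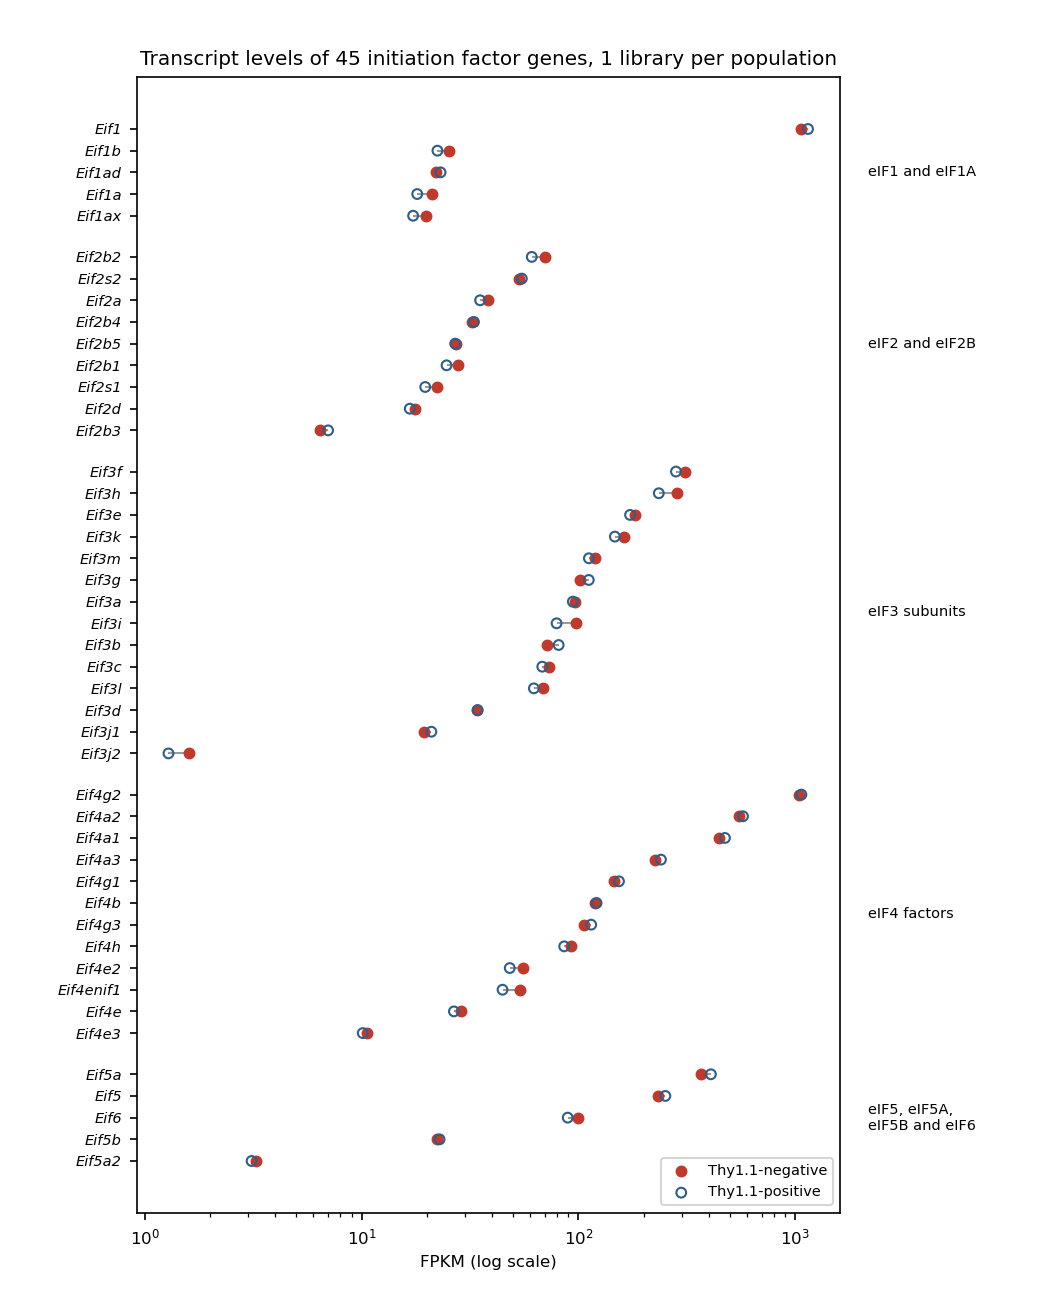
FPKM (log scale) of the 45 initiation factor genes with a mean of at least 1 FPKM in Thy1.1-negative cells (filled red) and Thy1.1-positive cells (open blue), 1 point per library, ordered by mean level within each role. Levels span 1.61 to 1068 FPKM in Thy1.1-negative cells and 1.29 to 1145 FPKM in Thy1.1-positive cells, while the points of each gene lie close together.

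The scanning factors eIF1 and eIF1A held the most abundant member of all. Eif1, which guards the choice of start codon, stood at 1068 FPKM in Thy1.1-negative cells and 1145 FPKM in Thy1.1-positive cells, from 14170 and 15252 reads. It led in both libraries, and its ratio was 0.932 (0.911 to 0.954). Its paralogue Eif1b was at 25.4 and 22.4 FPKM, with a ratio of 1.13 and an interval of 0.987 to 1.31 that included 1. FPKM is given per length, and by these values Eif1 was 42.0 times Eif1b in Thy1.1-negative cells and 51.1 times in Thy1.1-positive cells. How reads shared by paralogues were counted could change these figures.

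Eif1a and the X-linked Eif1ax encode near-identical forms of eIF1A and were expressed almost equally. Eif1a was at 21.2 FPKM in Thy1.1-negative cells and 18.1 FPKM in Thy1.1-positive cells, from 908 and 778 reads, a ratio of 1.17 (1.06 to 1.29) that was the largest of this role. Eif1ax was at 19.9 and 17.3 FPKM, with a ratio of 1.15 (1.05 to 1.26). Both were thus higher in Thy1.1-negative cells, by less than 1.2-fold, and Eif1a made 51.6% and 51.1% of their sum. Eif1ad, which carries an eIF1A-like domain, was at 21.96 and 23.1 FPKM, with a counting interval (0.869 to 1.04) that held 1. How reads that match both of a pair of paralogues were counted is not given in the sources used here, so the split within such pairs is uncertain.

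The role of eIF2 and its exchange factor eIF2B also takes in the eIF2-like factors Eif2a and Eif2d, which are not subunits of either. Its genes showed small differences in both directions, with 6 of 9 above 0 and a median of 0.08. The 5 eIF2B subunits alone had a median of 0.01, with 3 above 0. Eif2s1, the alpha subunit whose phosphorylation shuts down general initiation under stress, was at 22.4 FPKM in Thy1.1-negative cells and 19.7 FPKM in Thy1.1-positive cells, with a ratio of 1.14 (1.05 to 1.23). The beta subunit gene Eif2s2 was more abundant and level, at 53.4 and 54.9 FPKM, with an interval of 0.924 to 1.03. The alternative initiator tRNA carriers Eif2a and Eif2d were at 38.4 against 35.2 FPKM and at 17.6 against 16.7 FPKM. Of this pair, the interval of Eif2a (1.01 to 1.18) lay above 1 and that of Eif2d (0.954 to 1.17) included it.

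The 5 subunits of eIF2B were not expressed at equal levels. Eif2b2, the beta subunit, was the highest at 69.9 FPKM in Thy1.1-negative cells and 61.0 FPKM in Thy1.1-positive cells, from 1103 and 965 reads, and had the largest ratio of this role, 1.15 (1.05 to 1.25). Eif2b3, the gamma subunit, was the lowest at 6.43 and 7.01 FPKM, from 180 and 197 reads, and had the smallest ratio, 0.917 (0.745 to 1.13). The highest subunit was thus 10.9 times the lowest in Thy1.1-negative cells and 8.69 times in Thy1.1-positive cells. The alpha subunit Eif2b1 had 27.8 and 24.7 FPKM, the delta subunit Eif2b4 had 32.2 and 33.0 FPKM, and the catalytic epsilon subunit Eif2b5 had 27.3 and 27.04 FPKM. The intervals of these 3 included 1.

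The genes of eIF3, the role with the most members, lay above 0 in 10 of 14 cases (71.4%, next to 55.1% of all genes). Of these 14, 2 were at least 1.2-fold higher, a size that 19.9% of all genes passed. Eif3i, a WD-repeat subunit, was at 97.8 FPKM in Thy1.1-negative cells and 79.3 FPKM in Thy1.1-positive cells, from 1951 and 1588 reads, with a ratio of 1.23 (1.15 to 1.32). Eif3h, an MPN-domain subunit, was at 286 and 235 FPKM, from 3321 and 2737 reads, with a ratio of 1.22 (1.16 to 1.28). Both were higher in Thy1.1-negative cells under each of the 5 scalings tried. These multiplied Thy1.1-negative values by 0.975 to 1.19, too little to turn ratios of this size below 1. Eif3h lay below 1.2-fold when differences were centred on the median gene (0.25), and both did when the 100 highest genes were left out of the scaling (0.25 for Eif3h and 0.26 for Eif3i).

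Human eIF3 is built around an octamer of subunits with PCI or MPN domains, a, c, e, f, h, k, l and m, and all 8 of their genes lay above 0. This grouping was made after the values were seen. Eif3f was the most abundant eIF3 gene in both libraries, at 309.8 FPKM in Thy1.1-negative cells and 282 FPKM in Thy1.1-positive cells, with a ratio of 1.099 (1.06 to 1.14). Eif3k, at 162 and 147 FPKM, and Eif3l, at 68.7 and 62.3 FPKM, had ratios of 1.098 and 1.102. Eif3c had 73.4 and 68.2 FPKM (1.03 to 1.12), Eif3m 118.9 and 112 FPKM (1.005 to 1.13) and Eif3e 183 and 173 FPKM (1.02 to 1.09). Eif3a, which encodes the largest subunit, was closest to level, at 96.3 and 94.3 FPKM, with a counting interval (0.992 to 1.05) that held 1. The median of the octamer genes was 0.12, and 7 of the 8 were above 0 when the 100 highest genes were left out of the scaling or differences were centred on the median gene.

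The other 6 eIF3 genes lay on both sides of 0, with Eif3i and Eif3j2 above and Eif3b, Eif3g, Eif3d and Eif3j1 below. Eif3b, which forms a module with Eif3g and Eif3i, had the smallest ratio of all members, 0.886 (0.834 to 0.942), at 71.9 FPKM in Thy1.1-negative cells and 81.1 FPKM in Thy1.1-positive cells, from 1976 and 2237 reads. Eif3g was also lower, at 101.6 and 112 FPKM, with a ratio of 0.910 (0.851 to 0.973). Eif3d, a subunit that can bind caps itself, was level at 34.1 and 34.3 FPKM.

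The loosely bound subunit eIF3j is encoded by a pair of mouse genes of very unequal level. Eif3j1 was at 19.4 FPKM in Thy1.1-negative cells and 20.99 FPKM in Thy1.1-positive cells (ratio 0.924, 0.850 to 1.004). Eif3j2 was at 1.61 and 1.29 FPKM from 71 and 57 reads, too few to show a difference of its size, since its ratio of 1.25 had an interval of 0.870 to 1.80. Without eIF3j, the highest eIF3 gene (Eif3f) was 9.09 times the lowest (Eif3d) in Thy1.1-negative cells and 8.21 times in Thy1.1-positive cells.

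**Figure D2:**
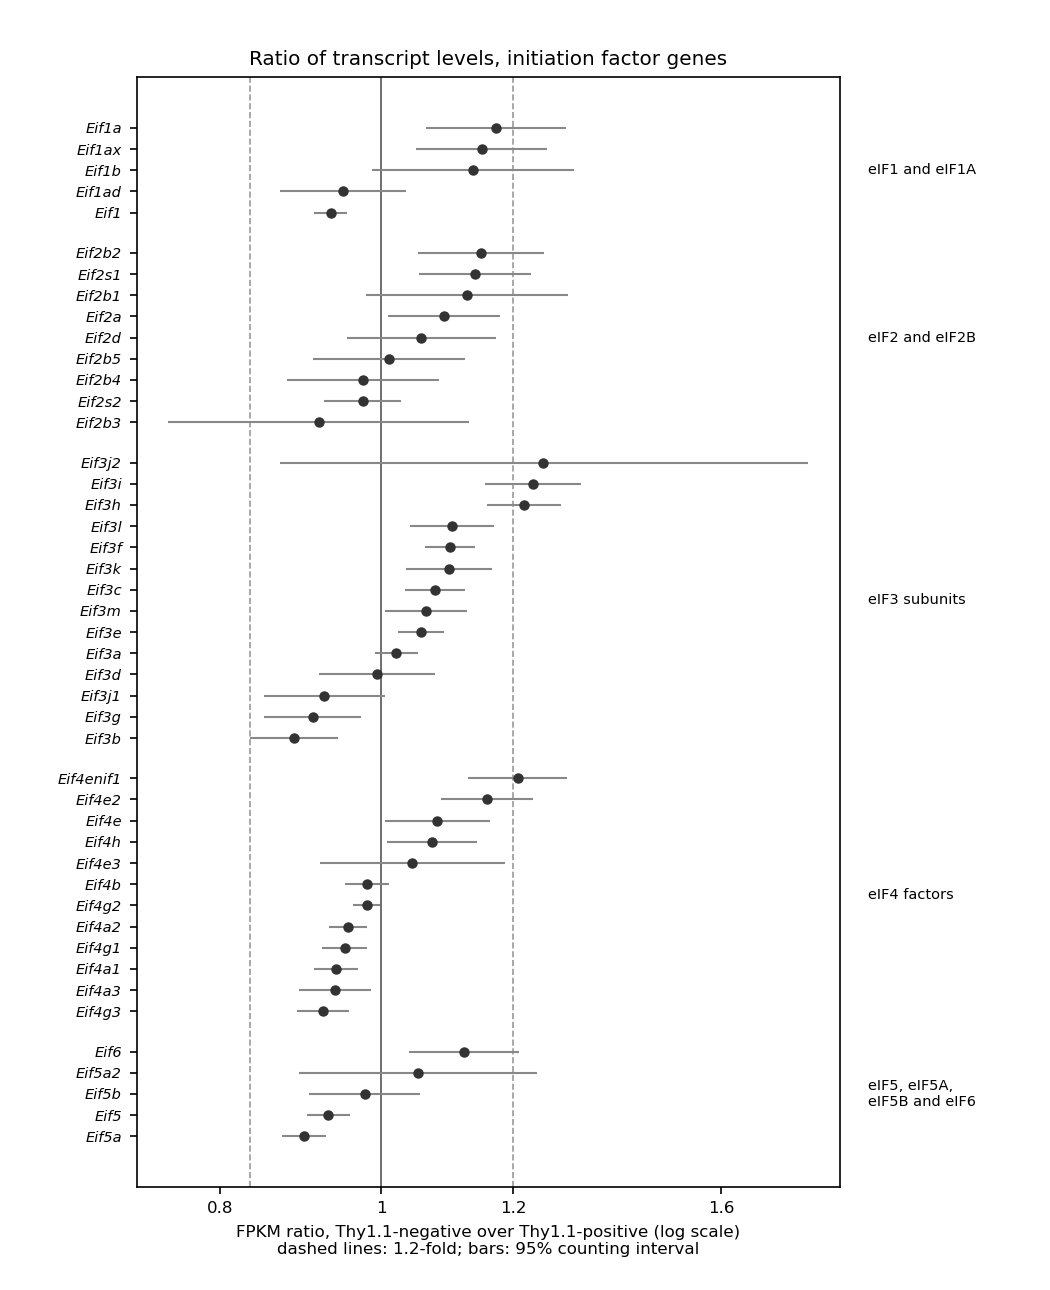
Ratio of FPKM, Thy1.1-negative over Thy1.1-positive (log scale), for the 45 genes by role, with 95% counting intervals as bars and 1.2-fold as dashed lines. The ratios run between 0.886 (Eif3b) and 1.25 (Eif3j2), and as deposited the eIF4A and eIF4G genes lie below 1 and the eIF4E genes above it, while after rescaling to the same upper quartile all 45 lie above.

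The eIF4 factors divided by family, a grouping also described after the values were seen. The cap-binding genes lay above 0. Eif4e, the cap-binding subunit of eIF4F, was at 28.8 FPKM in Thy1.1-negative cells and 26.7 FPKM in Thy1.1-positive cells, with a ratio of 1.08 (1.004 to 1.16). Eif4e2, a relative that represses initiation by occupying caps, was more abundant, at 55.8 and 48.3 FPKM, with a ratio of 1.16 (1.09 to 1.23). Eif4e3 was the lowest of the family at 10.6 and 10.1 FPKM, with a counting interval (0.918 to 1.19) that held 1. Eif4e2 exceeded Eif4e 1.94 times in Thy1.1-negative cells and 1.81 times in Thy1.1-positive cells.

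Eif4enif1, which encodes 4E-T, an eIF4E-binding protein that carries eIF4E into the nucleus and represses bound mRNAs, was the third gene past 1.2-fold. It was at 53.9 FPKM in Thy1.1-negative cells and 44.7 FPKM in Thy1.1-positive cells, from 1839 and 1529 reads, with a ratio of 1.21 (1.13 to 1.29). It lay below 1.2-fold with a pseudocount of 5 (0.25), when both libraries were brought to the same sum (0.26), when centred on the median gene (0.23) and without the 100 highest genes (0.23).

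The helicase and scaffold genes of eIF4F lay below 0 as deposited, and above 0 when rescaled to the same upper quartile. Eif4a1, the main eIF4A helicase, was at 445 FPKM in Thy1.1-negative cells and 474 FPKM in Thy1.1-positive cells, with a ratio of 0.939 (0.910 to 0.968). Its paralogue Eif4a2 was the more abundant of the pair, at 548 and 574 FPKM, with a ratio of 0.955 (0.931 to 0.980). Eif4a1 made 44.8% of their sum in Thy1.1-negative cells and 45.2% in Thy1.1-positive cells. Eif4a3, which works in the exon junction complex and not in eIF4F, had the same direction, at 225 and 240.3 FPKM (0.892 to 0.986).

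Among the scaffolds, Eif4g1 was at 146 FPKM in Thy1.1-negative cells and 154 FPKM in Thy1.1-positive cells, a ratio of 0.950 (0.920 to 0.981). Eif4g3 was at 105.6 and 115 FPKM, from 5688 and 6191 reads, and its ratio of 0.922 (0.889 to 0.956) was the smallest of the eIF4 role. Eif4g2, or DAP5, which lacks the eIF4E-binding region and serves cap-independent initiation, was the second most abundant member, at 1046 and 1067 FPKM. It exceeded Eif4g1 7.15 times in Thy1.1-negative cells and 6.94 times in Thy1.1-positive cells, and its ratio of 0.980 had an interval of 0.961 to 0.998. The helicase cofactors went different ways, with Eif4h at 92.2 and 86.0 FPKM (1.007 to 1.14) and Eif4b at 118.9 and 121 FPKM (0.951 to 1.01). The rescaling named above moved the median of all genes to 0.26.

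The late-acting factors held the second most negative gene of all. Eif5a, whose protein carries hypusine and helps ribosomes past difficult peptide bonds, was at 367 FPKM in Thy1.1-negative cells and 408 FPKM in Thy1.1-positive cells, from 7704 and 8605 reads, with a ratio of 0.898 (0.871 to 0.927). Its paralogue Eif5a2 was at 3.27 and 3.11 FPKM, so that Eif5a made 99.1% and 99.2% of the pair. Eif5, which makes eIF2 hydrolyse its GTP, was at 234 and 252 FPKM, with a ratio of 0.929 (0.902 to 0.957). Eif5b, the factor of subunit joining, was level at 22.4 and 22.9 FPKM. Eif6, which keeps large subunits apart from small ones, had the largest ratio of this role, 1.12 (1.04 to 1.21), at 100.1 and 89.3 FPKM, from 1440 and 1289 reads.

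The most abundant members lay below 0 as deposited. All 5 members above 300 FPKM (Eif1, Eif4g2, Eif4a2, Eif4a1 and Eif5a) lay below 0, with a median of -0.09, and 31.5% of the 279 genes in that range lay above 0, with a median of -0.11. The 14 members between 30 and 100 FPKM had a median of 0.11, with 10 above 0, next to a median of 0.04 over 2771 genes, 57.0% of them above 0. Between 100 and 300 FPKM, 5 of 11 members were above 0, next to 53.7% of all genes in that range. Between 10 and 30 FPKM, 9 of 12 members were, next to 58.9% of all genes there. Across the 45 genes, which share both libraries and are not independent, the difference and the log2 mean level had a Pearson r of -0.28 and a Spearman rho of -0.28. Across the 7127 genes with a mean of at least 10 FPKM these were -0.05 and -0.06.

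**Figure D3:**
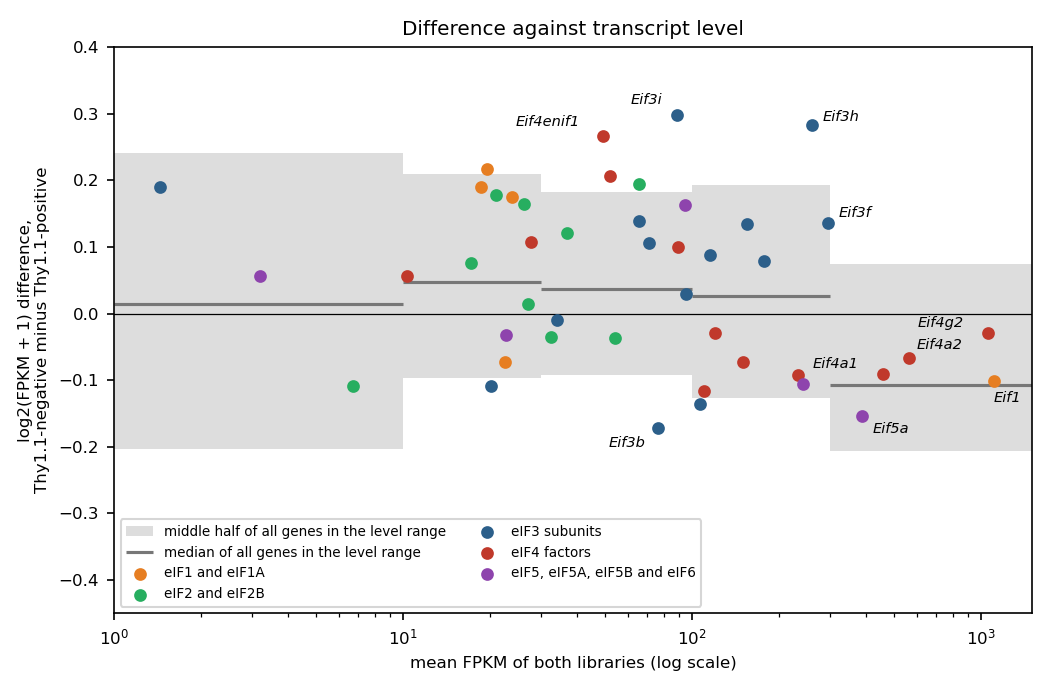
Difference in log2(FPKM + 1), Thy1.1-negative minus Thy1.1-positive, against mean FPKM (log scale), 1 point per initiation factor gene, coloured by role. Grey boxes span the lower to upper quartile of all genes in each level range and grey lines their median; the 5 members above 300 FPKM lie below 0, as does the median of all genes there (-0.11).

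The genes whose promoter windows hold CACGTG lay on both sides of 0. Of these 10 members, 7 were above 0 and 3 (Eif4a1, Eif4g1 and Eif5a) below, with a median of 0.08, while the 26 members with windows that lack it had a median of -0.02. Over expressed protein-coding genes the medians were 0.03 with CACGTG and 0.04 without. The split by CCGGAAG was of similar size, with 9 of 14 members above 0 and a median of 0.10 with it, and 10 of 22 above 0 and a median of -0.03 without it. Myc itself, the factor best known to bind this motif, was at 26.1 FPKM in Thy1.1-negative cells and 41.8 FPKM in Thy1.1-positive cells, a ratio of 0.625 (0.573 to 0.681). A match in a window is a description of its letters and does not show binding.

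The regulators that act on initiation factors spread over a range from -0.43 (Mknk2) to 0.46 (Eif2ak2), next to -0.17 to 0.30 among the factors. The 9 genes of eIF2 kinases and the integrated stress response had a median of -0.03. Among them, 1 was at least 1.2-fold higher and 2 were at least 1.2-fold lower in Thy1.1-negative cells, next to 19.9% and 13.9% of all genes. Eif2ak2, the double-stranded RNA sensor PKR that phosphorylates eIF2, was the higher one, at 42.1 FPKM in Thy1.1-negative cells and 30.4 FPKM in Thy1.1-positive cells, a ratio of 1.38 (1.27 to 1.51). Eif2ak4, the amino acid sensor GCN2, had the most negative difference of the list, at 9.51 and 12.005 FPKM, a ratio of 0.792 (0.714 to 0.879). Atf4, the transcription factor made when eIF2 is phosphorylated, was level at 221 and 225 FPKM.

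The list of 4E-BPs, mTORC1 and MNK genes also holds the mTORC1 regulators Rheb, Tsc1 and Tsc2, the S6 kinases, Pdcd4 and Larp1. Its genes lay below 0 in 9 of 15 cases, with a median of -0.09. The list mixes activators and inhibitors, so this count gives no direction of input to eIF4E. Of the 15, 2 were past 1.2-fold lower, a share close to the 13.9% of all genes. Mknk2, a kinase that phosphorylates eIF4E, had the most negative difference, at 212 FPKM in Thy1.1-negative cells and 287 FPKM in Thy1.1-positive cells, a ratio of 0.741 (0.717 to 0.767). Rptor, the raptor subunit of mTORC1, was at 29.0 and 35.3 FPKM, a ratio of 0.821 (0.766 to 0.880). The eIF4E inhibitors lay on both sides of 0. Eif4ebp1 had the most positive difference of the list, at 8.08 and 7.01 FPKM (0.903 to 1.47), Eif4ebp2 was at 94.5 and 84.6 FPKM (1.08 to 1.16), and the scarce Eif4ebp3 at 1.52 and 1.95 FPKM. None of these 15 genes, nor of the 9 before, reached 1.5-fold, a size that 5.81% of all genes passed upwards and 3.85% downwards.

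Past initiation, differences were again small. Of 14 genes of elongation, hypusination, termination and recycling, none passed 1.2-fold (19.9% of all genes did so upwards and 13.9% downwards) and the median was -0.06. Eef2k, the kinase that inhibits elongation factor eEF2, had the most negative difference, at 7.27 FPKM in Thy1.1-negative cells and 8.91 FPKM in Thy1.1-positive cells, and Pelo, a ribosome rescue factor, the most positive, at 7.22 and 6.08 FPKM. The 13 poly(A)-binding proteins and other initiation helpers also had none past 1.2-fold and a median of 0.02, with extremes at Bzw2 (75.4 and 84.8 FPKM) and Mcts1 (27.9 and 23.4 FPKM). The listed cytosolic ribosomal protein genes all stood above 300 FPKM. In that range 31.5% of 279 genes lay above 0, with a median of -0.11. The ribosomal proteins had the lowest median of these lists, -0.19, with 35 of 36 below 0. Of them, 8 were at least 1.2-fold lower, next to 13.9% of all genes. Rpl13 had their most negative difference, at 802 and 1009 FPKM, and Rpsa their most positive, at 1123 and 1115 FPKM. After rescaling to the same upper quartile that median was 0.06, which was -0.20 from the median gene.

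**Figure D4:**
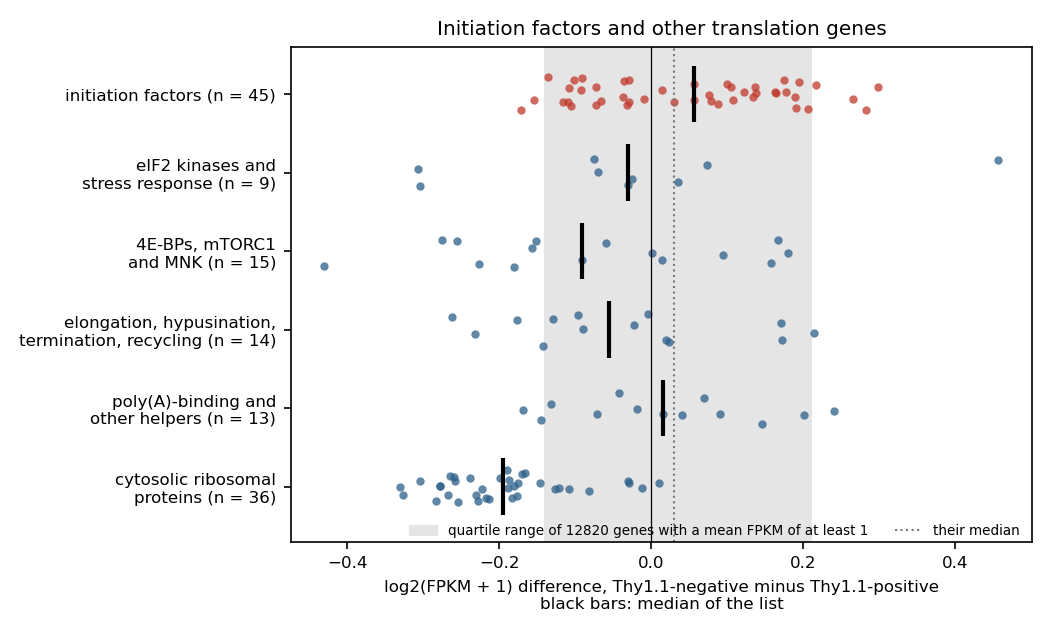
Difference in log2(FPKM + 1), Thy1.1-negative minus Thy1.1-positive, for the initiation factors (red) and 5 lists of other translation genes (blue), 1 point per gene with vertical jitter, with list medians as black bars over the quartile range of all genes in grey. The initiation factors have a median of 0.06 and the ribosomal proteins one of -0.19.

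Depth was similar, at 18536339 counted reads in Thy1.1-negative cells and 18600581 in Thy1.1-positive cells. Members with a mean of at least 1 FPKM had a median of 1951 and 1787 reads. T cell and Treg transcripts were abundant in both, with Cd3e at 292 and 248 FPKM, Cd4 at 471 and 327 FPKM and Foxp3 at 158 and 237 FPKM. Il2ra, the interleukin-2 receptor chain that marks Treg cells, had the largest difference of the 8 identity genes, at 98.8 and 205 FPKM, a ratio of 0.482. Markers of proliferation differed between the libraries, with 17 of 20 cell cycle genes at least 1.2-fold higher in Thy1.1-negative cells, next to 19.9% of all genes (5.81% at 1.5-fold). The cell cycle genes had summed levels of 964 and 716 FPKM. Their largest difference was in Stmn1 (53.9 and 5.70 FPKM) and their smallest in Tubb5 (285 and 283 FPKM), and 15 passed 1.5-fold (Stmn1, Aurkb, Mki67, Rrm2, Ccna2, Birc5, Top2a, Ccnb2, Ccnb1, Cdk1, Bub1, Plk1, Aurka, Mcm5 and Mcm3). Their part in the differences of initiation factors was not tested. Markers of other cells summed, over each whole list, to 8.73 and 6.52 FPKM for 5 B cell genes, 4.78 and 4.49 FPKM for 2 CD8 T cell genes and 3.14 and 3.21 FPKM for 4 dendritic cell genes. Natural killer markers summed to 2.22 and 0.709 FPKM over 3 genes, with Ncr1 listed at 0 in Thy1.1-negative cells. The lists for myeloid cells (68.8 and 52.0 FPKM, 6 genes), plasma cells (145 and 164 FPKM, 4 genes) and stromal or endothelial cells (87.0 and 64.3 FPKM, 4 genes) were mostly Cst3, Xbp1 and Pecam1. Some single markers in these lists differed more than the sums. Of the B cell markers, Cd79b was at 6.45 and 3.97 FPKM (157 and 97 reads). Cd79a was at 1.63 and 2.07 FPKM (44 and 56 reads), with a counting interval that held 1. Itgam was higher in Thy1.1-negative cells at 4.17 and 0.272 FPKM (229 and 15 reads). So were Col1a1 at 1.73 and 0.694 FPKM (57 and 23 reads) and Sdc1 at 3.51 and 2.06 FPKM (95 and 56 reads). The natural killer marker Klrb1c stood at 2.08 and 0.445 FPKM. Lower in Thy1.1-negative cells were the plasma cell markers Jchain (18 and 32 reads), Mzb1 (3 and 4 reads) and Xbp1 (141 and 161 FPKM). The myeloid markers S100a8 (4 and 7 reads) and S100a9 (1 and 3 reads) were lower as well. The counting intervals of Jchain, Mzb1, S100a8 and S100a9 held 1, so their reads are too few to show a difference. The Xbp1 ratio of 0.877 was close to that of its list's sums, 0.886. The part of these markers in the members' differences was not tested.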

How the data were processed

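Each sorted population gave 1 RNA-seq library. The labels' protocols name NEBNext Ultra reagents and an input of 3 µg RNA. The authors deposited FPKM values per Ensembl gene, and the N and P of the column names were read as Thy1.1-negative and Thy1.1-positive. TopHat2 2.0.12, Bowtie2 2.2.3, HTSeq 0.6.1 and the build mm9 are named in the submitters' processing notes, with settings not given in the sources used here. Symbols, gene types and lengths came from GENCODE M21, on another build than mm9, and 40254 of 41592 IDs (96.8%) had a symbol. Promoter sequences came from RefSeq on GRCm38.p6, and no deposited value was placed on coordinates.

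FPKM is normalised, so no count model was used. Differences are in log2(FPKM + 1), which understates the change of low genes, and genes with a mean of at least 1 FPKM were counted. For each of the 23442 genes with a value in both columns, the FPKM ratio was written as a ratio of whole numbers times 1 shared factor, within 2e-12. The denominators allowed were large enough for any ratio to meet this, so the match alone does not show whole reads. Annotated exon lengths then gave the library totals, with the Thy1.1-negative total implied by 4074 genes. Each gene's reads were the multiple bringing its implied length nearest to the mean annotated transcript length, which was met within 1 base for 19 of the 45 members. Reads of the others, and their exact Clopper-Pearson 95% intervals, rest on that choice. The intervals leave out variation between mice, sorts and library preparations, and reads of shared PCR origin.

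The scripts (Python 3.11.15, numpy 2.4.6, pandas 2.3.3, scipy 1.17.1) were tested on simulated data. The simulation used the summed exon length both to make and to recover reads. It therefore did not test the choice of mean transcript length on which the reported reads rest. Members and lists were chosen with earlier results of these data known. Given in full were members past 1.2-fold and the largest and smallest difference of each role, with further members named for their function. From the other translation and cell cycle lists the largest and smallest difference were named, with genes past 1.5-fold. Rptor, Eif4ebp2, Eif4ebp3, Atf4, Myc and, among cell type markers, Il2ra, Itgam, Col1a1, Sdc1 and Klrb1c were named after their values were seen. The same holds for Jchain, Mzb1, S100a8, S100a9, Cd79a and Cd79b. The alternatives tried were a pseudocount of 0.1 or 5, the low-value filter removed or raised to 5 FPKM, 4 rescalings, a fold rule of 1.5 and reads by exon length. The erythroid marker list is not reported here.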

Additional observations from a re-analysis of the deposited data

How the results depend on the processing

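No paired analysis was possible because each population has 1 library, and for the same reason no library could be left out. The medians of the members and of each role kept their sign under every alternative except rescaling to the same upper quartile, where those of eIF4 and of eIF5 to eIF6 turned positive. That rescaling multiplied Thy1.1-negative values by 1.19, placed all 45 members above 0 and gave medians of 0.29 (members), 0.42 (eIF1 and eIF1A), 0.32 (eIF2 and eIF2B), 0.35 (eIF3), 0.23 (eIF4) and 0.21 (eIF5, eIF5A, eIF5B and eIF6). The median of all genes became 0.26, so the members stood 0.03 above it, as with the deposited values. Medians of the other lists became 0.22 (eIF2 kinases and stress response), 0.16 (4E-BPs, mTORC1 and MNK), 0.20 (elongation to recycling), 0.27 (poly(A)-binding and helpers) and 0.062 (ribosomal proteins, which were at -0.23 without the 100 highest genes). The cell cycle median was 1.40, and 1.93 and 0.63 with pseudocounts of 0.1 and 5 and 0.71 at a mean of at least 5 FPKM. Members at least 1.2-fold higher numbered 3, but 24 by the upper quartile (49.5% of all genes). They numbered 4 with a pseudocount of 0.1 (22.6% of all genes), where Eif3j2 was added. With a pseudocount of 5 (12.3%) and at the same FPKM sum (19.0%) they numbered 2. There was 1 when centred on the median gene (16.8%), and 0 without the 100 highest genes (17.0%) or at 1.5-fold (5.81%). In all, 24 members were above 0 under the 5 scalings, none was below 0 under all of them, and 21 changed sign. With reads by summed exon length, the intervals of Eif2b1, Eif3a and Eif3j1 no longer included 1. Depth limits Eif3j2 most, with 71 and 57 reads, and Eif2b3, with 180 and 197.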

Other observations

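Rows named as pseudogenes of these factors held next to nothing. Of 6 such rows, 3 were listed at 0 in both libraries, and the most in any library was 4 reads, for Eif5al3-ps in Thy1.1-positive cells, next to 2 in Thy1.1-negative cells. Eif3s6-ps1 had 2 reads in Thy1.1-negative cells and a listed 0 in Thy1.1-positive cells, and Eif1-ps1 a listed 0 in Thy1.1-negative cells and 1 read in Thy1.1-positive cells.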
